A study of Mus musculus with 8 samples.

Results

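The granzymes *Gzma*, *Gzmb*, *Gzmc*, *Gzmk* and *Gzmm*, the pore-forming protein gene *Prf1*, the granule membrane gene *Nkg7*, the cytokine gene *Ifng* and the death ligand gene *Fasl* were followed in lymphocytes sorted from the mouse brain. These 9 genes, chosen by symbol, are 9 of the 32285 genes counted. Expression was read cell by cell from sorted CD45.2+ cells, in 8 droplet libraries that cover 2 genotypes and 4 treatments, with 1 library each. The genotypes were C57BL/6J (WT) and the *App* knock-in strain APPNL-G-F (App), which carries a humanized amyloid-β sequence with the Swedish, Arctic and Iberian mutations in the mouse's own *App* gene. Control mice drank water, mice with acute colitis drank 2% dextran sulfate sodium (DSS) for 1 week, and mice with chronic colitis went through 3 cycles of 2% DSS and water of 5 days each. Mice with food allergy were sensitized to ovalbumin, as the study's methods describe. All mice were 16 weeks old by the labels, and the methods give a younger age. The study's methods describe an injection of anti-CD45 antibody into the circulation ahead of perfusion, and no count in these libraries records which cells were labelled by it.

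Cytotoxic lymphocytes store granzymes, a family of serine proteases, and perforin in granules. Perforin opens the membrane of a target cell, granzymes enter and cleave proteins there, and NKG7 takes part in the release of the granules. Fas ligand kills through the receptor FAS without granules, and interferon gamma acts on macrophages and many other cells through its own receptor. Granzymes A and B are the most abundant family members in mouse NK cells and effector CD8 T cells, granzyme K marks a memory-like CD8 T cell state described in aged and inflamed tissue, and granzyme C is known from strongly activated lymphocytes.

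The libraries held 4874 to 7199 cells each, with 25617519 to 54618574 unique molecular identifiers (UMIs, each marking 1 captured transcript). Cells were gated on surface and lineage markers, none of which is among the 9 genes. The CD8 T gate held 180 to 807 cells per library, the CD4 T gate 70 to 257, the γδ T gate 71 to 214, and the NK gate 184 to 447. The γδ and NK marker lists, which no gate used, were highest in the gates of those names. The γδ list (*Tcrg-C1*, *Trdv4*, *Cd163l1*, *Sox13*, *Blk*) summed to 3411 to 5686 CPM (UMIs of the genes relative to all UMIs of that gate in that library, on a common scale) in the γδ T gate and to at most 105 CPM in the other 3, and the NK list (*Klrd1*, *Tyrobp*, *Klra8*, *Klra4*, *Klra7*, *Eomes*, *Itga2*) reached 3828 to 5318 CPM in the NK gate and at most 685 CPM elsewhere. Other lists did not follow the names as closely. A T cell list (*Cd28*, *Lck*, *Cd5*, *Trac*, *Trbc1*, *Trbc2*, *Cd6*) had 405 to 715 CPM in the γδ T gate and 495 to 808 CPM in the NK gate. It had 1138 to 1851 CPM in the CD8 T gate and 1766 to 2533 CPM in the CD4 T gate. The NK gate also took in cells with markers of type 1 innate lymphoid cells (ILC1), which are described separately. The ILC1 list used there summed to 490 to 892 CPM in the NK gate and to 2099 to 2794 CPM in the γδ T gate. It had 1007 to 1420 CPM in the CD8 T gate and 1014 to 1458 CPM in the CD4 T gate. The NK gate was thus the lowest of the 4 gates on this list, which does not mark ILC1 alone. Any pair of libraries shared 34 to 72 cell barcodes, at most 1.25% of the smaller one. A list of 5 myeloid genes (*Lyz2*, *S100a8*, *S100a9*, *Csf1r*, *Csf3r*), of which *Csf1r* and *Csf3r* also excluded cells from the gates, was highest in App acute colitis outside the CD4 T gate. It had 16388 CPM there in the CD8 T, 22637 CPM in the γδ T and 18685 CPM in the NK gate, where the median libraries had 2046, 159 and 229 CPM. WT food allergy had 8185, 6632 and 3168 CPM in these gates, and WT chronic colitis 5774 CPM in the γδ T and 3251 CPM in the NK gate. The CD4 T gate was highest in App control, at 1717 CPM. The part of these transcripts in the values of those libraries was not tested.

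*Gzma* lies on chromosome 13 (chr13:113093825-113100981, minus strand, GRCm38, GENCODE vM21) with *Gzmk* (chr13:113171608-113225908, minus strand), and *Gzmb* (chr14:56258838-56262260, minus strand) lies on chromosome 14 with *Gzmc* (chr14:56231441-56234656, minus strand). *Gzmm* (chr10:79689020-79695261), *Prf1* (chr10:61297833-61304680) and *Ifng* (chr10:118441046-118445892) are on the plus strand of chromosome 10, *Nkg7* is on chromosome 7 (chr7:43437073-43438249, plus strand) and *Fasl* on chromosome 1 (chr1:161780689-161788495, minus strand). All 9 are protein-coding. Of the 50-base windows of the longest transcript, 4.14% of *Gzmc* occur in another gene too, mostly in *Gzme*, so that a few *Gzmc* reads cannot be assigned with certainty. For *Ifng* the share is 13.5%, with *Gm49751*, and for the other 7 genes it is 0.

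The 250 bases before the RefSeq start (GRCm38.p6) are printed 5′ to 3′ on the strand of the gene for *Gzma*, *Gzmb*, *Gzmc* and *Gzmk*, the 4 granzymes of higher level, to compare those led by NK cells with the one led by CD8 T cells. The windows lie at chr13:113100982-113101231, chr14:56262335-56262584, chr14:56234658-56234907 and chr13:113180966-113181215, and the *Gzmk* window falls inside the longer GENCODE gene. Capitals mark matches, on either strand, to the letters TGANTCA (AP-1), GGTGTGA (T-box) and TGTGGT (Runx), which did not overlap one another.
Gzma: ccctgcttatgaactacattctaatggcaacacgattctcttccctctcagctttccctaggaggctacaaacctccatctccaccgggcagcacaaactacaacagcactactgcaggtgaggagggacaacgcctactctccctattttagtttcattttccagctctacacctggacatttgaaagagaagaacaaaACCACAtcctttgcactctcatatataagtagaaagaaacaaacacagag
Gzmb: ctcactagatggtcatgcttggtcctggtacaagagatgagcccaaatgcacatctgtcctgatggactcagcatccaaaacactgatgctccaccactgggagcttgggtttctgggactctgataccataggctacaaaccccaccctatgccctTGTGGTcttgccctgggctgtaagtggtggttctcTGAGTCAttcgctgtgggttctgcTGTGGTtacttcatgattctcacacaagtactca
Gzmc: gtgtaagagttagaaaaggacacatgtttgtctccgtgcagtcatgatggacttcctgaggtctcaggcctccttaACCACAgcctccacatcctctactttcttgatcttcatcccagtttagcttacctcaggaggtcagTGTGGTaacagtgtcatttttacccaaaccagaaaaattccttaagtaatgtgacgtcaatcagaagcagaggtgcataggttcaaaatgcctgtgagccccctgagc
Gzmk: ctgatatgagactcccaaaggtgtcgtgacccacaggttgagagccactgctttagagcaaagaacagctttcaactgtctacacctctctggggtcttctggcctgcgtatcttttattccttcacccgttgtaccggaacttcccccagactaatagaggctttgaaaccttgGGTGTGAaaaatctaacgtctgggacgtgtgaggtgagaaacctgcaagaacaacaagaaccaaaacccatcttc
The Runx letters occurred in 6 of the 9 windows, among them *Gzma* (1 match), *Gzmb* (2) and *Gzmc* (2), and in 14.0% of 32851 windows of the same length. The AP-1 letters were found in the *Gzmb* window alone among the 9, against 6.75% of all windows, and the T-box letters in *Gzmk* and *Nkg7*, against 3.33%. The short NFAT core GGAAA, not capitalized, was present in 5 of the 9 and in 55.6% of all. These are letter matches only and were not tested as binding sites.

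The question asked first was which lymphocytes carried each gene. Of 54 tests, for 9 genes in the 6 pairs of gates with the 8 libraries as blocks, 41 were called (edgeR quasi-likelihood test, adjusted p under 0.05), or 75.9%, against a background of 31.1% over all genes and pairs, and 44 had an unadjusted p under 0.05 (39.4%). By pair, the background was 16.3% for CD8 T against CD4 T, 37.1% for CD8 T against γδ T, 33.9% for CD8 T against NK, 31.4% for CD4 T against γδ T, 32.7% for CD4 T against NK and 35.5% for γδ T against NK. Differences between gates are given as log2 fold changes ± SE, and levels as CPM. In such sums, fewer cells that express a gene and fewer transcripts per cell cannot be told apart.

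*Gzma*, a tryptase-type granzyme, was above all a gene of the NK gate. It ranged there from 1403 CPM (App food allergy) through a median of 2104 CPM to 3521 CPM (App acute colitis). The CD8 T gate had 34.6 to 244 CPM with a median of 120 CPM, the γδ T gate 1.31 to 330 CPM with a median of 20.9 CPM, and the CD4 T gate 0 to 105 CPM with a median of 4.32 CPM. The lowest NK value lay above the highest value of every T gate. The NK gate exceeded the CD8 T gate by 4.24 ± 0.48 (adjusted p = 8.7e-09), whereas CD8 T against γδ T (1.08 ± 0.57, adjusted p = 0.141) and γδ T against CD4 T (0.73 ± 0.75, adjusted p = 0.51) did not pass. CD8 T against CD4 T passed narrowly (1.81 ± 0.64, adjusted p = 0.049). That call was lost with the order-of-magnitude cell cutoff alone (0.80 ± 0.79, adjusted p = 0.632), with cells of several hashtags kept (1.19 ± 0.56, adjusted p = 0.173), and when WT chronic colitis (adjusted p = 0.061), WT food allergy (0.091), App control (0.16), App acute colitis (0.115), App chronic colitis (0.161) or App food allergy (0.096) was left out.

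*Gzmb*, the granzyme that cleaves after aspartate and activates caspases, was also highest in the NK gate but extended further into the T cells. It ranged from 237 CPM (WT acute colitis) to 877 CPM (App food allergy) in the NK gate, with a median of 621 CPM. The CD8 T gate had 80.6 to 195 CPM with a median of 157 CPM, the γδ T gate 5.43 to 140 CPM with a median of 45.6 CPM, and the CD4 T gate 6.53 to 174 CPM with a median of 27.9 CPM. NK cells were above all T gates in every library pairing. The step from NK to CD8 T was 1.85 ± 0.26 (adjusted p = 8.3e-07) and from CD8 T to γδ T 1.505 ± 0.35 (adjusted p = 0.000895), while γδ T and CD4 T differed by 0.21 ± 0.45 (adjusted p = 0.776). CD8 T cells exceeded CD4 T cells by 1.72 ± 0.36 (adjusted p = 0.00063), a call that was lost with the order-of-magnitude cell cutoff alone (0.997 ± 0.50, adjusted p = 0.234).

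*Gzmc*, which lies near *Gzmb* in the same cluster, was, among the 4 gates, mostly found in the NK gate. It ranged there from 177 CPM (WT chronic colitis) to 671 CPM (WT food allergy), with a median of 469 CPM, and its median was at most 5.74 CPM in the T gates. The NK gate exceeded the γδ T gate by 4.21 ± 0.57 (adjusted p = 3.1e-07), and none of the 3 pairs of T gates passed. The few high T cell values came from single cells. In the CD8 T gate of WT control, 139 of 141 *Gzmc* UMIs were in 1 cell, and in the γδ T gate of WT chronic colitis all 70 were.

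*Gzmk* had the opposite order. The CD8 T gate ranged from 352 CPM (WT acute colitis) to 598 CPM (WT food allergy), with a median of 443 CPM, and the CD4 T gate from 21.2 CPM (WT chronic colitis) to 406 CPM (App food allergy), with a median of 92.5 CPM. The NK gate stayed between 5.53 and 19.4 CPM and the γδ T gate between 0 and 8.02 CPM. CD8 T cells were above CD4 T cells by 1.80 ± 0.23 (adjusted p = 4.4e-07), and CD4 T cells above NK cells by 3.92 ± 0.35 (adjusted p = 7.8e-11), with no overlap between the libraries of the CD4 T and NK gates. NK against γδ T did not pass (1.96 ± 0.90, adjusted p = 0.0898). *Gzmm*, the granzyme that cleaves after methionine, was low throughout. It had 5.12 to 38.1 CPM in the CD8 T gate and 3.07 to 21.8 CPM in the NK gate, with overlapping libraries and a difference of 0.93 ± 0.23 (adjusted p = 0.00203). Both exceeded the γδ T and CD4 T gates, where no library had more than 3 *Gzmm* UMIs.

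*Prf1*, the gene of perforin, was the member whose 4 gates all differed in order. Its median was 221 CPM in the NK gate (164 to 284 CPM), 75.6 CPM in the CD8 T gate (62.7 to 90.7 CPM), 27.6 CPM in the γδ T gate (10.9 to 32.2 CPM) and 9.83 CPM in the CD4 T gate (4.46 to 15.3 CPM). The libraries of the NK, CD8 T and γδ T gates did not overlap, and those of the γδ T and CD4 T gates did. The steps were 1.37 ± 0.09 (adjusted p = 6.7e-14), 1.71 ± 0.15 (adjusted p = 1.5e-11) and 1.25 ± 0.24 (adjusted p = 9.6e-05), the last of which missed the threshold with the order-of-magnitude cell cutoff alone (adjusted p = 0.0643). *Nkg7* was equally a gene of NK and CD8 T cells. The NK gate had 2131 to 2766 CPM and the CD8 T gate 1631 to 2536 CPM, which overlapped and differed by 0.04 ± 0.15 (adjusted p = 0.865). The CD4 T gate had 204 to 918 CPM and the γδ T gate 210 to 537 CPM. CD8 T cells exceeded CD4 T cells by 2.23 ± 0.16 (adjusted p = 1.7e-12). CD4 T against γδ T (0.44 ± 0.16, adjusted p = 0.0365) was lost without WT control (adjusted p = 0.21), WT acute colitis (0.0789), WT food allergy (0.0886), App control (0.055) or App food allergy (0.111), with DESeq2 (0.0968), with the order-of-magnitude cell cutoff alone (0.378), with cells of several hashtags kept (0.0738) and in the exact sign-flip permutation test over libraries (0.257).

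The 2 secreted or surface ligands were less tied to the NK gate. *Ifng* was lowest in γδ T cells, and no pair of the other gates passed. It had 46.5 to 172 CPM in the NK gate (median 74.2 CPM), 9.92 to 136 CPM in the CD4 T gate (median 65.5 CPM), 31.6 to 115 CPM in the CD8 T gate (median 51.3 CPM) and 1.74 to 55.7 CPM in the γδ T gate (median 11.9 CPM). NK against CD4 T (0.24 ± 0.24, adjusted p = 0.489) and CD4 T against CD8 T (0.18 ± 0.24, adjusted p = 0.712) did not pass. The larger step of CD8 T against NK, -0.43, had an unadjusted edgeR p under 0.05 and was not called. CD8 T cells were above γδ T cells by 1.92 ± 0.33 (adjusted p = 1.6e-05). *Fasl* was at like levels in NK cells (205 to 325 CPM, median 258 CPM) and CD8 T cells (217 to 281 CPM, median 246 CPM). CD8 T cells exceeded NK cells by 0.11 ± 0.09 in the fit, which did not pass (adjusted p = 0.366). The CD4 T gate followed with 72.2 to 193 CPM, lower than CD8 T by 1.08 ± 0.10 (adjusted p = 1.3e-09), and the γδ T gate with 32.6 to 67.4 CPM, lower again by 1.41 ± 0.14 (adjusted p = 6.7e-10).

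**Figure D1:**
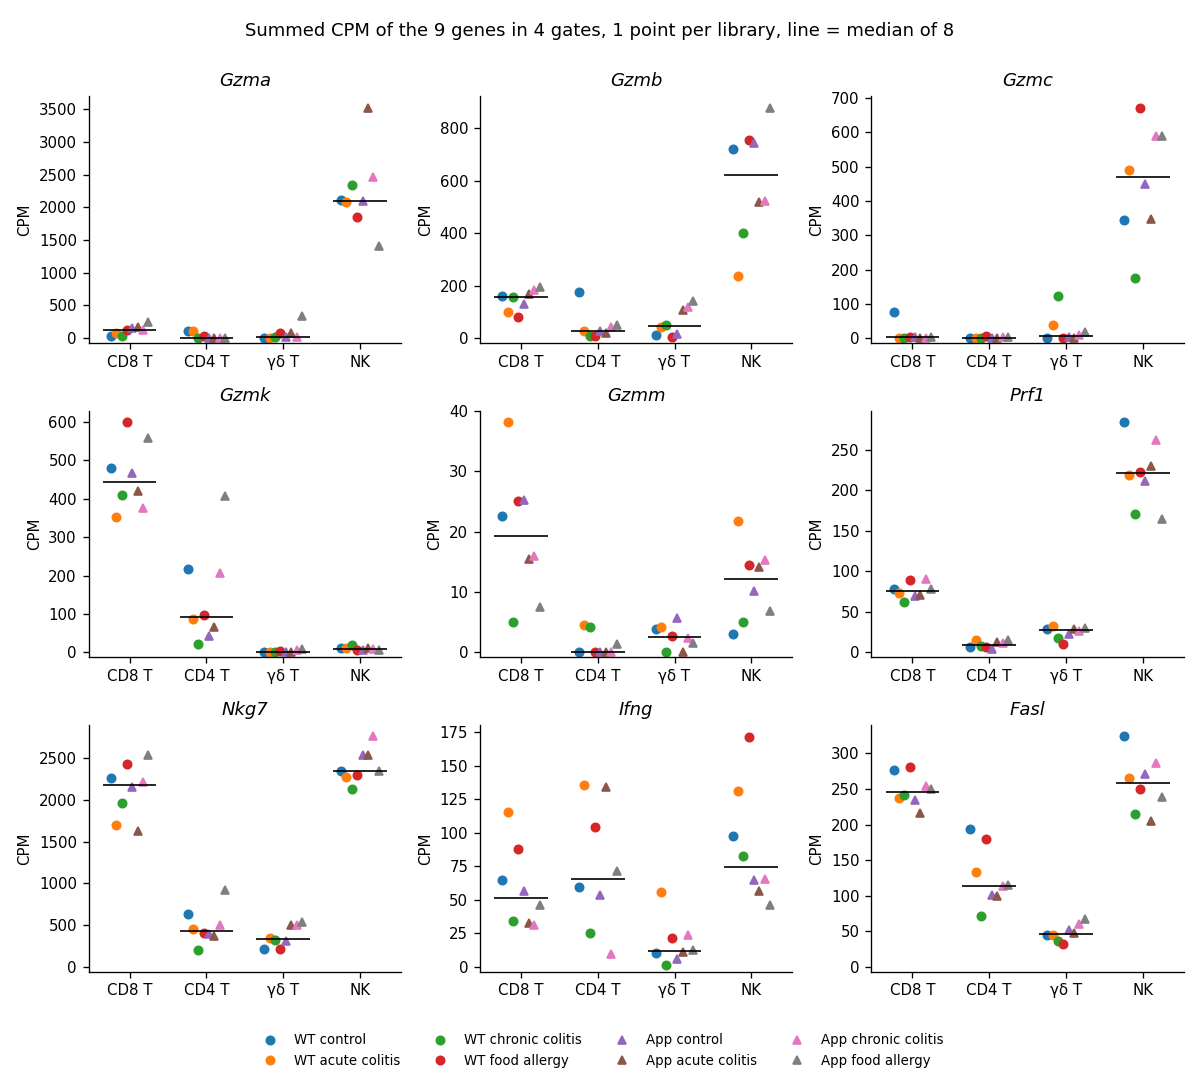
CPM (vertical axis, linear) of each of the 9 genes in 4 gates (horizontal axis), with 1 point per library and a line at the median of 8 libraries. The NK points of *Gzma*, *Gzmb*, *Gzmc* and *Prf1* lie above every T cell point, *Gzmk* is highest in CD8 T cells, and *Nkg7* and *Fasl* overlap between NK and CD8 T cells.

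The 8 libraries of a pair of gates often did not overlap, without a test. CD8 T cells were higher in 4 of the 9 genes than CD4 T cells (background 2.04% of 2644 genes) and in 4 than γδ T cells (8.21%). They were lower than NK cells in 4 (13.2%) and higher in 1, *Gzmk* (6.24%). CD4 T cells were higher than γδ T cells in 2 (6.47%), lower than NK cells in 6 (9.53%) and higher in 1, *Gzmk* (7.38%), and γδ T cells were lower than NK cells in 6 (9.95%). *Prf1* and *Fasl* were separated in 5 of the 6 pairs each, and *Ifng* in 0. The background holds only genes that reached at least 100 CPM in a sum. *Gzmm*, which is among the genes higher in CD8 T than in CD4 T cells, reached at most 38.1 CPM and lies below that floor.

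The share of cells with at least 1 UMI followed the sums, given here as the median of 8 libraries with the value after thinning every cell to 1500 UMIs in parentheses. In the NK gate it was 38.4% (36.8%) for *Gzma*, 40.8% (30.9%) for *Gzmb*, 12.9% (10.5%) for *Gzmc*, 40.1% (25.5%) for *Prf1*, 97.0% (93.6%) for *Nkg7*, 15.7% (9.26%) for *Ifng* and 55.2% (31.7%) for *Fasl*. In the CD8 T gate it was 5.97% (5.06%) for *Gzma*, 15.9% (10.96%) for *Gzmb*, 56.5% (42.4%) for *Gzmk*, 20.0% (11.8%) for *Prf1*, 95.4% (90.2%) for *Nkg7*, 11.1% (6.65%) for *Ifng* and 51.9% (33.4%) for *Fasl*. *Gzma* thus had few carriers among CD8 T cells and *Gzmk* many. B cells, which should lack all 9, had median shares of at most 0.394% for 8 of the genes and 1.61% for *Nkg7*. The median cell held 2737 to 3941 UMIs in the NK gate, 2590 to 3770 in the CD8 T gate and 2140 to 2893 in the B cell gate. *Gzmm* had 0 UMIs among all 11752 B cells, and *Nkg7* reached 10.9% of neutrophils in its highest library, and these low shares in B cells and neutrophils are not read as expression.

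Most transcripts of the NK-led genes were indeed in the NK gate, which held a median of 5.16% of the cells. Pooled over libraries, it contained 80.2% of 24260 *Gzma* UMIs, 69.1% of 5839 *Gzmc* UMIs, 53.5% of 10284 *Gzmb* UMIs and 52.2% of 3725 *Prf1* UMIs. The CD8 T gate, with a median of 7.92% of the cells, contained 75.5% of 7870 *Gzmk* UMIs, 52.5% of 453 *Gzmm* UMIs, 37.5% of 8568 *Fasl* UMIs and 36.7% of 76514 *Nkg7* UMIs. *Ifng* was divided between NK (28.5%) and CD8 T cells (26.3%), with 11.6% in CD4 T cells and 26.6% of its 2597 UMIs in cells that no gate took. Mast cells and basophils, a median of 1.09% of the cells, held 2.45% of the *Nkg7* UMIs and 2.68% of the *Gzmb* UMIs, and 9.11% of the latter in their highest library.

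In the T gates a few cells carried many transcripts of *Gzma*, *Gzmb* or *Gzmc*. Among sums of at least 20 UMIs, 13 rested on 1 cell for more than 50% of their UMIs. The CD4 T gate of WT control had 57 of 60 *Gzma* UMIs and 66 of 100 *Gzmb* UMIs in 1 cell, and fell to 5.23 CPM *Gzma* and 59.3 CPM *Gzmb* without it. In WT acute colitis, 1 CD8 T cell held 66 of 76 *Gzma* UMIs and 1 CD4 T cell 56 of 67. The γδ T gates of WT food allergy (26 of 28 *Gzma* UMIs) and App acute colitis (19 of 22) were alike in this. No NK sum was among the 13.

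Other genes of the same machinery were followed as a list of 45, of which 40 passed the count filter. Between NK and CD8 T cells, 22 were higher in NK and 4 higher in CD8 T cells (background 16.8% and 17.1%), with a median log2 fold change of CD8 T over NK of -0.57 for the list and -0.0039 for all genes. Between NK and γδ T cells, 25 were higher in NK and 9 in γδ T cells (background 17.3% and 18.2%). Among the granule genes, *Serpinb9* and *Serpinb6b*, inhibitors that guard the cell against its own granzymes, were lower in CD8 T than in NK cells by 2.46 ± 0.15 and 2.40 ± 0.16, and *Ctsw*, a granule cathepsin, by 0.62 ± 0.09. *Srgn*, the proteoglycan that packs the granule, did not pass (-0.19 ± 0.17, adjusted p = 0.427). The transcription factors *Tbx21* and *Eomes*, which direct the cytotoxic programme, were lower in CD8 T than in NK cells by 1.22 ± 0.11 and 1.16 ± 0.18, and the chemokine gene *Ccl5* was higher by 0.85 ± 0.25 (adjusted p = 0.00918). *Fas*, the receptor of the Fas ligand, was higher in CD8 T than in NK cells by 1.24 ± 0.22. CD8 T cells exceeded CD4 T cells in 13 of the 40 and were lower in 7 (background 7.88% and 8.42%), and *Eomes* was higher by 2.79 ± 0.32 and *Klrd1*, a subunit of NK receptors, by 2.72 ± 0.16.

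Within the NK gate the granzymes divided the cells. Cells were compared by whether they had more UMIs of an ILC1 list (*Itga1*, *Cxcr6*, *Il7r*, *Tnfsf10*; 1266 cells) or of a conventional NK list (*Eomes*, *Itga2*, *Klra8*, *Klra4*, *Klra7*; 1077 cells), with 140 cells in neither class. Cells of 1 library are not replicates, so these are counts of libraries without a test. For this and the later comparisons of subsets within a gate, the share of all genes with the same direction in every library was not computed. Such counts are therefore not read as particular to the members. *Gzma* was lower in the ILC1-rich cells in 8 of 8 libraries, with a median of 273 CPM against 3770 CPM, and the highest ILC1-rich value (472 CPM) lay under the lowest conventional one (3184 CPM). *Gzmc* was higher in the ILC1-rich cells in 8 of 8, at 851 CPM (461 to 1325 CPM) against 90.1 CPM (6.69 to 181 CPM). *Prf1* was lower in 8 of 8 (104 against 310 CPM), as were *Nkg7* (1867 against 2811 CPM), *Gzmk* (2 against 87 UMIs in all) and *Gzmm* (4 against 89 UMIs). *Gzmb* was higher in the ILC1-rich cells in 5 libraries and lower in 3 (649 against 470 CPM), *Ifng* divided 4 and 4, and *Fasl* 6 and 2 (260 against 250 CPM).

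**Figure D2:**
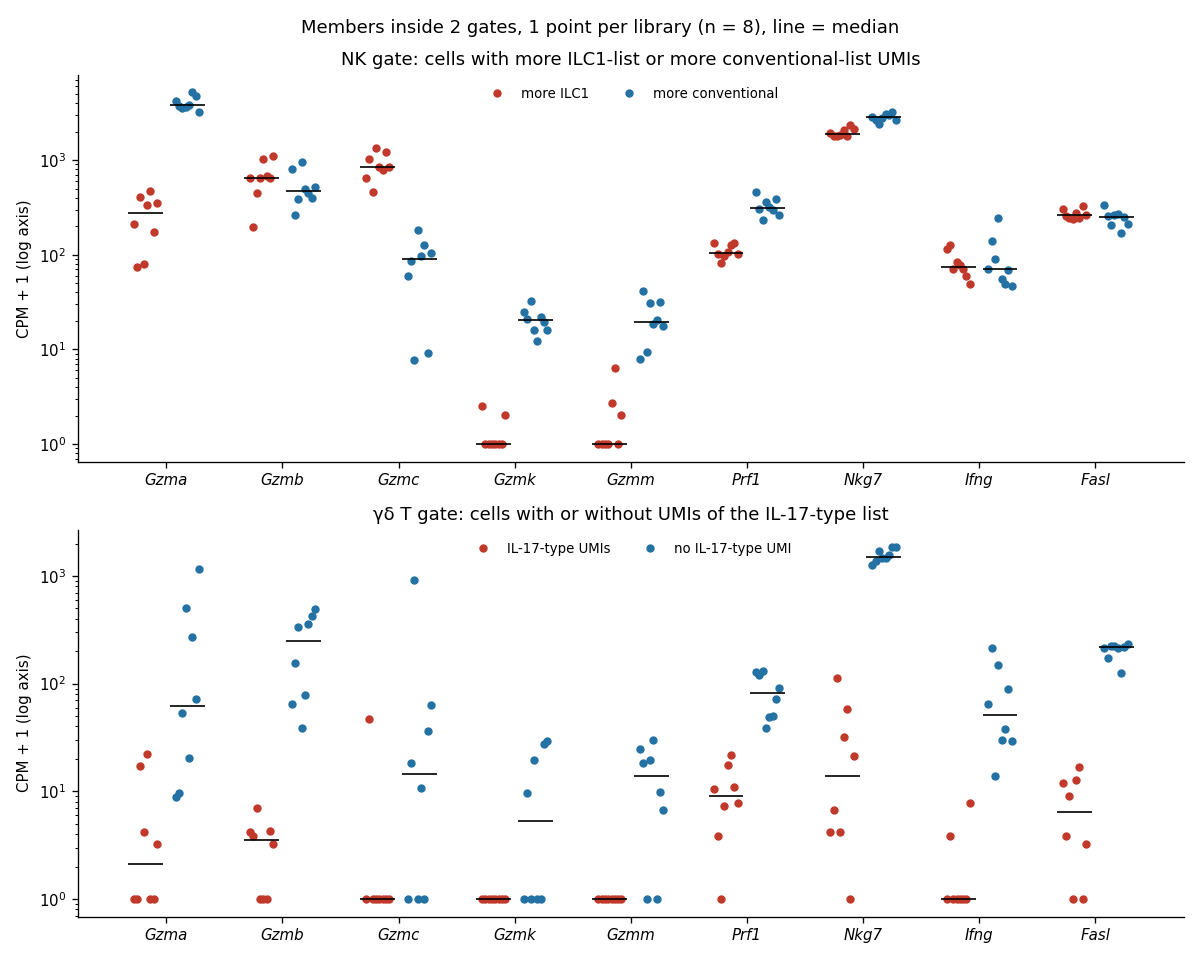
CPM + 1 (vertical axis, log scale) of the 9 genes in cells of the NK gate with more ILC1-list or more conventional-list UMIs (top) and of the γδ T gate with or without UMIs of the IL-17-type list (bottom), 1 point per library and a line at the median of 8. *Gzma* and *Gzmc* separate the NK cells in opposite directions, and *Nkg7*, *Fasl*, *Prf1* and *Gzmb* are higher in the γδ T cells without IL-17-type UMIs in 8 of 8 libraries.

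Single NK cells showed the same division. *Gzma* and *Gzmc* UMIs were found together in 70 of 2483 NK cells, where their separate shares in each library would give 135, and the count was lower than that in 8 of 8 libraries. *Gzmb* accompanied both: it was found with *Gzmc* in 286 cells (153 from the shares, higher in 8 of 8) and with *Gzma* in 495 (406, higher in 8 of 8). *Prf1* was found with *Gzma* in 568 cells (415, higher in 8 of 8) and with *Gzmc* in 143 (146, higher in 2 and lower in 6). Cells with a *Gzmc* UMI made up 8.43% to 24.8% of the NK gate, cells with *Gzma* but no *Gzmc* 21.5% to 57.8%, and cells with neither 33.7% to 53.7%. The *Gzmc* cells had a median of 2225 CPM *Gzmb*, the *Gzma* cells 485 CPM and the cells with neither 244 CPM. Depth per cell enters such counts, since a cell with more UMIs has more chances to show both genes.

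The γδ T gate was also divided. IL-17-producing γδ T cells are the main γδ population of the meninges, and 847 of 1075 γδ T cells had UMIs of an IL-17-type list (which includes *Il17a*, *Il17f* and *Il23r*). In the 228 without them, *Nkg7* had a median of 1511 CPM (1252 to 1850 CPM), against 12.9 CPM (0 to 112 CPM) in the IL-17-type cells. *Fasl* had 217 against 5.44 CPM, *Prf1* 80.6 against 8.08 CPM, *Gzmb* 246 against 2.55 CPM and *Ifng* 50.3 CPM against 0. All 5 were higher in the cells without IL-17-type UMIs in 8 of 8 libraries. The low γδ T sums of these genes are thus sums over a small part of the gate. Single cells weighed on some of them. For *Gzmb*, 1 cell held 18 of 29 γδ T UMIs in WT chronic colitis, 19 of 29 in App acute colitis and 53 of 87 in App food allergy. For *Ifng*, 1 cell held 15 of 26 in WT acute colitis. Without the top cell of each library, the median *Gzmb* of the whole γδ T gate fell from 45.6 to 13.5 CPM.

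In the CD8 T gate 3708 of 3896 cells had a *Ccl5* UMI, a chemokine of effector and memory cells. The 188 others, 7 to 45 per library, had lower *Gzmk*, *Prf1*, *Nkg7* and *Fasl* in 8 of 8 libraries and lower *Ifng* in 7 of 8. They held 1 *Gzma*, 6 *Gzmb* and 0 *Gzmm* UMIs in all, too few to compare by library. *Gzmk* fell there to 63.2 CPM against 467 CPM, *Fasl* to 43.6 CPM against 257 CPM and *Nkg7* to 687 CPM against 2242 CPM. In CD8 T cells *Gzma* and *Gzmb* were found together in 123 cells (39.6 from the shares, higher in 8 of 8). In the CD4 T gate, the 110 cells with a UMI of *Foxp3*, the regulatory T cell factor, had lower *Gzmk*, *Nkg7* and *Fasl* in 8 of 8 libraries. *Nkg7* had a median of 85.8 CPM in them, against 488 CPM in the 1262 others, and *Fasl* 32.1 against 120 CPM.

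Over the 32 sums of 4 gates in 8 libraries, the genes most like each member were taken by Pearson's r of log2(CPM + 10), among 2644 genes. These points share libraries and gates, so r describes mainly the order of the gates. *Gzma* was closest to *Arsb* (r = 0.914), *Car2* (0.903) and *Efhd2* (0.898), and *Gzmb* to *Efhd2* (0.920), *Gimap5* (0.910) and *Ctsw* (0.903). *Gzmc* was closest to the NK receptor genes *Cd244a* (0.946), *Klra9* (0.933) and *Klra4* (0.929), and *Prf1* to *Efhd2* (0.958), *Samd3* (0.958) and *Klrd1* (0.956). Genes near to *Gzmk* included the ribosomal gene *Rps10* (0.910) and *Gramd3* (0.908). *Nkg7* followed *Ifitm10* (0.960) and *Ccl5* (0.945), and *Fasl* followed *Epsti1* (0.943), *Gimap6* (0.938) and *Prkch* (0.930). *Gzmm* (*Slamf7* 0.771, *Samd3* 0.725, *Nkg7* 0.695) and *Ifng* (*Ubb* 0.781, *Sh3bp1* 0.777, *Ube2h* 0.771) had no gene as near.

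Antibody hashtags mark the samples pooled in a library. Cells of 4 hashtags were found in 6 libraries and of 3 in WT food allergy and App acute colitis, where hashtag 6 had 0 positive cells, and hashtag groups differed within libraries. The summed level in T cells of 10 immediate-early genes, such as *Fos*, *Jun* and *Egr1*, which are induced within minutes of stimulation or of tissue handling, had its widest gap, of 2.09-fold, between 884 and 1847 CPM. Of 30 hashtag groups, 11 lay below it, 17 above it and 2 had too few cells, and 7 libraries held both kinds. The 3 scored groups of WT acute colitis were all above it. These are sets found from the data and not groups of the study, and they were not tested.

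In NK cells, *Gzmb* was lower in the high set in 7 of 7 libraries (median 287 against 956 CPM), as was *Gzmc* (151 against 794 CPM), where 2.99% of 2378 genes were lower in all 7. The *Gzmb* values of the high set (253 to 507 CPM) lay below those of the low set (649 to 2217 CPM) without overlap. The share of all genes without overlap between the sets was not computed, so this is not read as particular to *Gzmb*. *Gzma* was higher in the high set in 6 of 7 (2466 against 1113 CPM), with WT chronic colitis opposite, and so was *Ifng* (91.6 against 31.2 CPM). The share of ILC1-rich cells moved with the sets. It was 37.8% to 74.6% of NK cells in the low set and 37.4% to 47.8% in the high set, and lower in the high set in 7 of 7 libraries. App acute colitis hardly moved, with 37.8% in the low and 37.4% in the high set. Its share of conventional cells was 56.0% and 54.2%. Within the ILC1-rich cells alone, *Gzmb* (308 against 1032 CPM) and *Gzmc* (445 against 1059 CPM) were lower and *Ifng* (110 against 32.7 CPM) higher in the high set in 7 of 7. Within the conventional cells, in the 6 libraries with at least 10 cells in each set, *Gzma* (4443 against 2920 CPM) and *Ifng* (84.3 against 24.5 CPM) were higher and *Gzmc* (2.81 against 196 CPM) lower in 6 of 6, as *Gzmm* was higher (29.5 against 10.1 CPM), and *Gzmb* was higher in 2 and lower in 4. The library left out, WT chronic colitis, had 9 conventional cells in the low set and went the other way in *Gzma* (3401 CPM in the high against 4675 CPM in the low set), *Ifng* (73.5 against 186 CPM) and *Gzmm* (7.74 against 12.4 CPM). WT food allergy had 17 such cells.

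**Figure D3:**
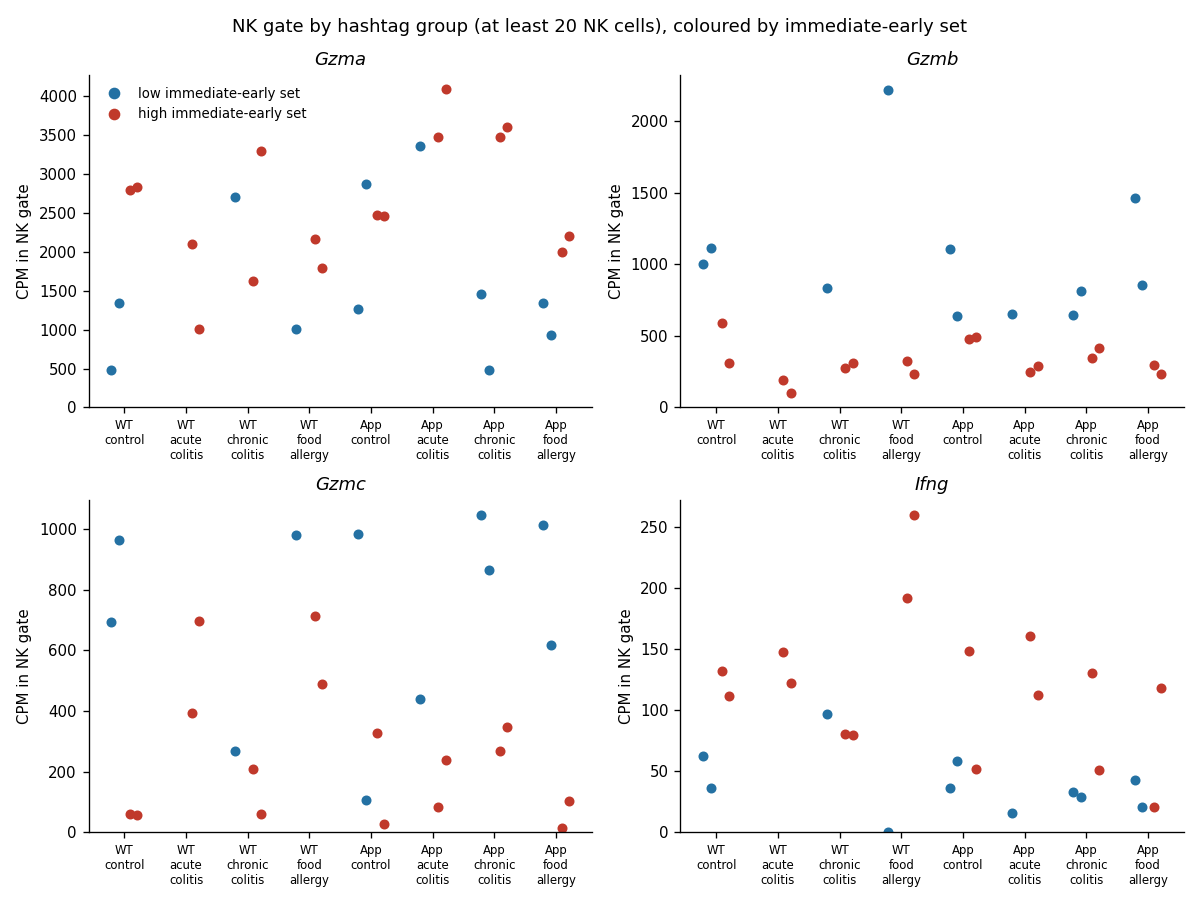
CPM of 4 genes in the NK gate (vertical axes, linear) for each hashtag group with at least 20 NK cells, by library (horizontal axis) and coloured by the low or high immediate-early set. In the 7 libraries with both sets, every *Gzmb* point of the high set lies below the *Gzmb* points of the low set in the same library, and the *Ifng* points of the high set lie above those of the low set in 4 of them.

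*Ifng* moved with the sets in T cells too. It was higher in the high set in 7 of 7 libraries in CD8 T cells (85.6 against 29.8 CPM), where *Gzmm* was as well (32.03 against 9.10 CPM) and 5.12% of 2128 genes were higher in all 7. These 2128 genes reached at least 100 CPM in a set, which *Gzmm*, at most 47.0 CPM, did not. In CD4 T cells *Ifng* was higher in 7 of 7 (92.7 against 19.6 CPM, background 3.29%). In γδ T cells *Nkg7* was lower in the high set in 7 of 7 (299 against 724 CPM, background 2.87%). The share of cells with IL-17-type UMIs moved with it. It was 38.5% to 68.2% of γδ T cells in the low set and 76.9% to 89.2% in the high set, higher in 7 of 7, and the low sets held 11 to 48 γδ T cells. Within the γδ T cells without such UMIs, *Nkg7* was higher in the high set in 2 and lower in 3 of the 5 libraries with at least 10 cells in each set (1782 against 1485 CPM). *Gzmb* in CD8 T cells was higher in 3 libraries and lower in 4 (137 against 174 CPM), unlike in NK cells.

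The comparison of the conditions themselves was limited by 1 library for each, so that a condition and its library cannot be told apart. Hashtag groups of at least 20 gated cells, 1 to 4 per library and gate, stood in for replicates, and which mouse or mice each hashtag marks is not given in the sources used here. For App chronic colitis the study counts fewer mice than there were hashtag groups, so groups of that library may share an animal. Acute colitis, chronic colitis and food allergy were compared with control in each genotype, and App control with WT control, for the genes that passed the count filter in each gate. *Gzmc* did not pass in CD8 T cells, *Gzmc*, *Gzmm* and *Prf1* did not in CD4 T cells, and *Gzmk* and *Gzmm* did not in γδ T and NK cells. Of 196 tests on the 9 genes, 0 were called (edgeR, background 1.16% of all genes), and 29, or 14.8%, had an unadjusted p under 0.05 (background 7.72%; 19 without WT control hashtag 6). By contrast and gate the background was 0.54% to 4.16% against WT control, which stands in 4 of the 7 contrasts, and 0% to 0.337% against App control. These were 14 of 42 tests in CD4 T cells, 9 of 49 in γδ T cells, 4 of 56 in CD8 T cells and 2 of 49 in NK cells. DESeq2 called 2, *Nkg7* in CD4 T cells of WT chronic colitis (-1.80 ± 0.51, adjusted p = 0.027) and *Gzmc* in γδ T cells of the same library, whose UMIs came from 1 cell. For the difference of each treatment between the genotypes, 0 of 84 tests were called (background 1.08%) and 10 had an unadjusted p under 0.05 (background 7.32%; 6 without WT control hashtag 7 or without WT chronic colitis hashtag 5), and DESeq2 called 0. Without App food allergy hashtag 4, 1 was called, *Nkg7* in CD4 T cells in chronic colitis (2.11 ± 0.55, adjusted p = 0.0427).

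The nearest to a call was *Gzma* in CD8 T cells of App control against WT control, 2.31 ± 0.66 (adjusted p = 0.0547, background 2.94%). The 4 WT control hashtag groups had 12.0, 28.6, 51.1 and 93.8 CPM and the 4 App control groups 92.0, 157, 294 and 191 CPM. The ranges met at 1 group each. The call was made with the immediate-early set as a term (2.30 ± 0.58, adjusted p = 0.0185), and without WT control hashtag 7 (2.95 ± 0.74, adjusted p = 0.0221), WT acute colitis hashtag 4 (adjusted p = 0.0416) or 5 (0.0486), WT food allergy hashtag 7 (0.0354), App control hashtag 4 (0.0365) or App food allergy hashtag 6 (0.0399). Over all 8 libraries, *Gzma* in CD8 T cells was lowest in WT control (34.6 CPM) and WT chronic colitis (37.1 CPM) and highest in App food allergy (244 CPM), and the lowest App library (119 CPM) lay near WT food allergy (122 CPM). In WT food allergy, 41 of its 68 *Gzma* UMIs were in 1 CD8 T cell, and 48.3 CPM remained without it.

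In NK cells 0 of 49 tests passed. *Gzmb* in WT acute colitis against WT control had a log2 fold change of -2.20 ± 0.77 (edgeR adjusted p = 0.215, and 0.0367 with at least 50 gated cells per group). The 2 hashtag groups of WT acute colitis with enough NK cells had 192 and 102 CPM, and the WT control groups 1000, 1116, 590 and 314 CPM. The whole NK gate of WT acute colitis, with the cells left out of this fit, had 237 CPM, above both of its fitted groups. Both WT acute colitis groups were of the high immediate-early set, and the 2 lowest WT control groups were too. *Gzma* was highest in App acute colitis (3521 CPM), but its log2 fold change against App control did not reach an unadjusted p of 0.05. *Nkg7* in App control against WT control had 0.26 ± 0.11 (adjusted p = 0.37).

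In CD4 T cells 0 of 42 tests passed, and several fitted changes were wide and rested on few transcripts. Against WT control, *Gzmb* had log2 fold changes below 0 in WT acute colitis (-3.27 ± 1.10, adjusted p = 0.2), WT food allergy (-4.54 ± 1.63, adjusted p = 0.281) and App control (-2.74 ± 0.93, adjusted p = 0.178), each of them against the same WT control library, of whose 100 *Gzmb* UMIs 66 were in 1 cell. *Nkg7* in WT chronic colitis against WT control did not pass (-1.81 ± 0.54, adjusted p = 0.101), with 137 and 182 CPM in its 2 groups and 452, 773, 529 and 688 CPM in WT control. *Gzmk* in App food allergy against App control did not pass either (2.81 ± 0.99, adjusted p = 0.937). A single hashtag group carried this, with 845 CPM, and the other 3 had 49.9, 60.3 and 108 CPM beside 21.7 to 53.5 CPM in App control. The same group had 1433 CPM *Nkg7*, where the other 3 had 456 to 624 CPM (1.02 ± 0.35 against App control, adjusted p = 0.877). Single hashtag groups decided several of these. Without WT control hashtag 4 or 5, *Gzma* was called in App control against WT control (adjusted p = 0.0327 and 0.0346), and without hashtag 5 *Gzmb* was as well (0.0361). Without WT control hashtag 7, which held the cell with most *Gzma* UMIs, *Gzma* was called higher in WT acute colitis (4.30 ± 1.07, adjusted p = 0.0441), where 56 of 67 UMIs were again in 1 cell. Without App food allergy hashtag 4, *Nkg7* was called in WT chronic colitis (adjusted p = 0.0289).

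In γδ T cells *Gzma* in App food allergy against App control had a log2 fold change of 4.05 ± 1.14, which did not pass (adjusted p = 0.311). The 3 groups of App food allergy had 7.67, 315 and 835 CPM, and the 3 of App control had 0, 0 and 52.5 CPM. The groups overlapped. With at least 50 gated cells per group, which left 1 group of each library, *Gzma* was called (9.57 ± 1.40, adjusted p = 0.00549), and with gates that asked for more marker UMIs the fitted difference of *Gzma* in γδ T cells had the opposite sign (-6.02 ± 4.24). App acute colitis had 1 γδ T group of enough cells, so its γδ T contrasts borrow their spread from the other groups. Of the 45 genes of the wider list, 36 were tested in CD8 T, 26 in CD4 T, 36 in γδ T and 37 in NK cells, in each of the 7 contrasts. Only 3 calls were made, a smaller share than the 1.16% called over all genes. *Il2rb*, an interleukin-2 receptor chain, was lower in CD4 T cells of WT chronic colitis than of WT control (-1.26 ± 0.30, adjusted p = 0.0201, background 2.17%, of which 0.0794% lower). *Klrd1* was higher in NK cells of WT food allergy than of WT control (0.59 ± 0.16, adjusted p = 0.0418, background 1.75%, of which 1.7% higher). *Tnf* was lower in NK cells of App control than of WT control (-1.93 ± 0.53, adjusted p = 0.0437, background 2.51%, of which 0.112% lower).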

How the data were processed

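Single-cell gene expression was measured in CD45.2+ brain cells with droplet 5′ libraries of 8 samples, 1 per genotype and treatment. The values are raw UMI counts per barcode, deposited by the authors as unfiltered matrices made with Cell Ranger on mm10 (version 6.1.2 in the submitters' processing notes, 4 in the matrix headers), with counts of 4 hashtag antibodies. The map from hashtags to mice is not given in the sources used here.

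Cells were called with an order-of-magnitude cutoff (3000 expected cells) and, from 500 UMIs, by a test against the ambient profile (1000 simulations, false discovery rate 0.01). A minimum of 200 genes and a mitochondrial limit of 5% were set. A hashtag was called present above the trough between the peaks of its counts in that library, and above 50 counts in any case. Cells with several hashtags were left out, and doublets within 1 hashtag were not removed. Gates used these UMI rules. T cells had at least 2 *Cd3d*, *Cd3e* and *Cd3g* UMIs. CD8 T cells had *Cd8a* or *Cd8b1* without *Cd4* or *Trdc*, CD4 T cells *Cd4* without the others, and γδ T cells *Trdc* without *Cd4* or *Cd8b1*. NK cells had at least 2 *Ncr1*, *Klrb1c* and *Klre1* UMIs and at most 1 of the *Cd3* genes. More than 1 UMI of B cell genes or of *Csf1r*, *Csf3r* and *Cd68* excluded a cell.

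Summed counts of all genes were tested with edgeR 4.0.16 (quasi-likelihood, TMM, filter on low counts, two-sided, Benjamini-Hochberg over all genes of a contrast) in R 4.3.3. Gates were compared with the library as a block. Conditions were compared over hashtag groups of at least 20 gated cells, whose p-values measure the spread between these groups only, and which may be technical. DESeq2 1.42.0 and an exact sign-flip permutation test over the 8 libraries (256 flips, smallest p 0.0078) were alternatives. On simulated counts with 100 changed genes of each size, the NK against CD8 T comparison of libraries was run at a dispersion of 0.05. It recovered 95% of 2-fold and 100% of 4-fold changes among 7898 genes, with 13 false calls. The NK comparison of App food allergy with App control over hashtag groups recovered 47% and 100% at a dispersion of 0.05 (6243 genes, 7 false calls). At a dispersion of 0.3 it recovered 0% and 31% (6704 genes, 1 false call). Levels were summed with Python 3.11.15 (numpy 2.4.6, scipy 1.17.1, pandas 2.3.3). CPM has counting error only within a library.

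The genes named are the 9 members, the 3 genes most like each of them (some of which are not reported here), genes of the wider list of 45 called in a condition contrast (with examples from the gate contrasts, chosen after their values were seen) and markers that bear on a value. The members and all lists were chosen with earlier results of these data known.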

Additional observations from a re-analysis of the deposited data

Results flagged for a closer look

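Among 79 sets of 4 hashtag groups of 1 library, 1 gate and 1 gene, with at least 20 UMIs a set, 7 held a group whose gap to the nearest of the others was wide for the range of the set. The *Gzmc* set in CD8 T cells and the *Gzma* set in CD4 T cells of WT control reached 20 UMIs only through the outlying group. No such count was made over all genes, so the 7 are not set against chance. In WT control, hashtag 4 had 166.9 CPM *Gzmc* in CD8 T cells, where the others had 0 to 6.95 CPM, and its 139 UMIs were in 1 cell. Hashtag 7 of the same library had 115 CPM *Prf1* in CD8 T cells (others 70.8 to 73.9 CPM), from 33 UMIs, and 415.5 CPM *Gzma* in CD4 T cells (others 0 to 11.5 CPM), where 57 of its 58 UMIs were in 1 cell. Hashtag 5 of WT control had 2647 CPM *Nkg7* in NK cells, against 2237 to 2307 CPM.

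In App chronic colitis, hashtag 6 had 83.9 CPM *Ifng* in CD8 T cells, from 17 UMIs, where the others had 21.9 to 31.4 CPM. In App food allergy, hashtag 4 had 845 CPM *Gzmk* in CD4 T cells, from 261 UMIs in 89 cells, where the others had 49.9 to 108 CPM, and hashtag 5 had 221 CPM *Prf1* in NK cells (others 149 to 151 CPM).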

How the results depend on the processing

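Of the 54 gate tests, 41 were called, and 33 (of 48 tests) to 48 under the alternatives, with 39 to 43 when each library was left out, and no called difference changed sign. The condition contrasts, with 0 calls of 196, were less stable: DESeq2 called 2, no filter on low counts 49 (of 252), the immediate-early set as a term 5, at least 50 gated cells 3 (of 170), the order-of-magnitude cell cutoff alone 5 (of 130), stricter gates 1 (of 165) and a mitochondrial limit of 10% 0, and leaving out each hashtag group gave 0 to 2. Of the 5 calls with the immediate-early term, 4 were *Gzma* or *Gzmb* in CD4 T cells against WT control. The interaction, with 0 calls, gave 12 (of 108) without the filter, 2 (of 41) with the order-of-magnitude cutoff alone and 0 to 1 when each group was left out. *Gzma* in γδ T cells of App food allergy against App control changed sign under stricter gates, at -6.02. In the conventional NK cells alone, 4 members (*Gzma*, *Gzmc*, *Gzmm*, *Ifng*) went the same way between the immediate-early sets in the 6 libraries compared, without WT chronic colitis, where 3 of the 4 went the other way, and 2 members did in all NK cells of 7 libraries. The cause of these changes was not tested. With the hashtag number as a replicate block, added after the data were seen, 1 condition contrast was called (*Gzma* in CD8 T cells of App control, adjusted p = 0.0244). Correlations between groups of the same number had medians of -0.012 to 0.012, and ranged from -0.395 to 0.454 in CD8 T cells. The immediate-early sets followed the numbers within libraries, in directions that changed between libraries. Such correlations can cancel in a median, so whether the numbers pair the samples cannot be told from it. Condition contrasts with cells of several hashtags kept gave no value, since such cells belong to no hashtag group. Depth limits *Gzmm*, and *Gzmc* and *Gzmk* outside their main gate.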
